A study of Danio rerio with 28 samples.

Results

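The nuclear genes of oxidative phosphorylation were followed here through liver regeneration in adult zebrafish. The set holds the 106 of 27652 gene rows whose names begin with nduf, uqcr, cox4 to cox8, sdha to sdhd, or atp5, and 4 of them are written in capitals (COX5B, COX7A2, NDUFB1 and NDUFAF8). By the role of their products, 38 belong to complex I, 5 to complex II, 8 to complex III, 20 to complex IV and 19 to complex V, 12 are assembly factors and 4 form the ndufa4 family. The rule reads gene names only, but it was set with earlier results of these data known.

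Complexes I and II pass electrons from NADH and succinate to ubiquinone, complex III passes them on to cytochrome c, complex IV hands them to oxygen, and complex V uses the resulting proton gradient to make ATP. Most subunits are encoded in the nucleus, made on cytosolic ribosomes and imported, and they are assembled around a core of subunits that the mitochondrial genome encodes. Hepatocytes are rich in mitochondria, whose ATP supports urea synthesis, gluconeogenesis and secretion of plasma proteins. Several complex IV subunits exist as paralogues that differ between tissues, and in mammals COX6A2, COX7A1 and COX8B are known as the forms of heart and skeletal muscle.

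The data were 28 Drop-seq libraries, in which each transcript carries a unique molecular identifier (UMI). Of these, 22 came from sorted liver cells of fish with the driver Tg(Tp1:CreERT2), the reporter Tg(-3.5ubb:LOXP-EGFP-LOXP-mCherry) and the ablation transgene Tg(fabp10a:CFP-NTR). They were mCherry+ cells of uninjured fish, of mock-treated fish and of fish at 0, 1, 2, 3 or 7 days after ablation of the hepatocytes (dpa), with 3 libraries per group, and 1 library of GFP+ cells from uninjured fish. The other 6 held all liver cells of uninjured TU fish. In the sorted groups, Notch-responsive Tp1 drives an inducible recombinase that turns biliary epithelial cells (BECs) and their descendants mCherry+. The paper induced this recombination with hydroxytamoxifen in larvae carrying all 3 transgenes, on days 2 to 3 after fertilization. The fabp10a promoter puts nitroreductase into hepatocytes, which metronidazole then kills. Every sorted group, uninjured and mock included, carried all 3 transgenes. The labels do not say whether libraries of a group came from separate fish, so p-values measure the spread between libraries, which may be technical.

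Each library listed 5000 barcodes, with 926798 to 7296066 UMIs, and barcodes above the library's mean total were called cells (661 to 1566 per library). No pair of libraries shared more than 4 cell barcodes. Clusters were named from marker genes with the set itself kept out of clustering, and a name such as BEC-like rests on those markers alone. The naming rule left many cells without a name: 48.2% in mock, 48.71% at 0 dpa and 47.77% at 7 dpa, against 6.67% to 17.67% at 1 to 3 dpa and 64.51% in the GFP+ library. Raw UMIs were summed per library and type, so each value below is a library's sum, scaled to the total UMIs of that library and type as CPM (counts per 1000000). The 3 sums of a state held 468 BEC-like cells in mock, 578 at 0 dpa, 892 at 1 dpa and 1202 at 2 dpa, and 1975 and 1212 hepatocyte-like cells at 3 and 7 dpa. The largest cluster of a class changed with the day, except between mock and 0 dpa. Cluster 9 held 261 of the BEC-like cells in mock and 253 at 0 dpa, cluster 16 held 467 at 1 dpa and cluster 1 held 767 at 2 dpa. Of the hepatocyte-like cells, clusters 2 and 4 held 1162 and 799 at 3 dpa and cluster 3 held 898 at 7 dpa. As a check on the names, 11 BEC markers summed to 15321 to 16423 CPM in mock BEC-like and 1522 to 1799 CPM in 7 dpa hepatocyte-like sums, and 13 hepatocyte markers to 2009.6 to 2909.7 and 47338 to 47989.8 CPM. Free RNA was left in the sums. Libraries were labelled by day, so day of sampling and sequencing run cannot be told apart.

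As a share of all UMIs the set's summed level was higher in each state from 1 dpa BEC-like to 3 dpa hepatocyte-like cells than in the state before, and lower at 7 dpa than at 3 dpa. The libraries held 10219, 9836 and 10518 CPM in mock, 10330.4, 10004 and 10264 at 0 dpa, 20578, 19927 and 20607 at 1 dpa and 32830.3, 33576 and 33919 at 2 dpa. Hepatocyte-like cells followed with 40120.0, 41256 and 40206 CPM at 3 dpa and 12452, 12689 and 12636 at 7 dpa. The mock and 0 dpa libraries overlapped, each later state lay apart from its neighbours, and every 7 dpa library was below every 1 dpa library and above every mock library.

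Of the 98 members that passed the filter on low counts, 72 had their highest mean CPM in 3 dpa hepatocyte-like cells and 20 in 2 dpa BEC-like cells. The exceptions were cox5b2, cox6a2 and cox7a1, highest at 7 dpa, ndufaf3 and sdhaf2, highest at 1 dpa, and cox4i2, highest in mock. None was highest at 0 dpa. The remaining 8 members had too few UMIs to be tested: ndufa9b, ndufs1, ndufs8b, sdhda, sdhaf1, ndufa4, ndufa4l2a and ndufa4l2b.

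**Figure D1:**
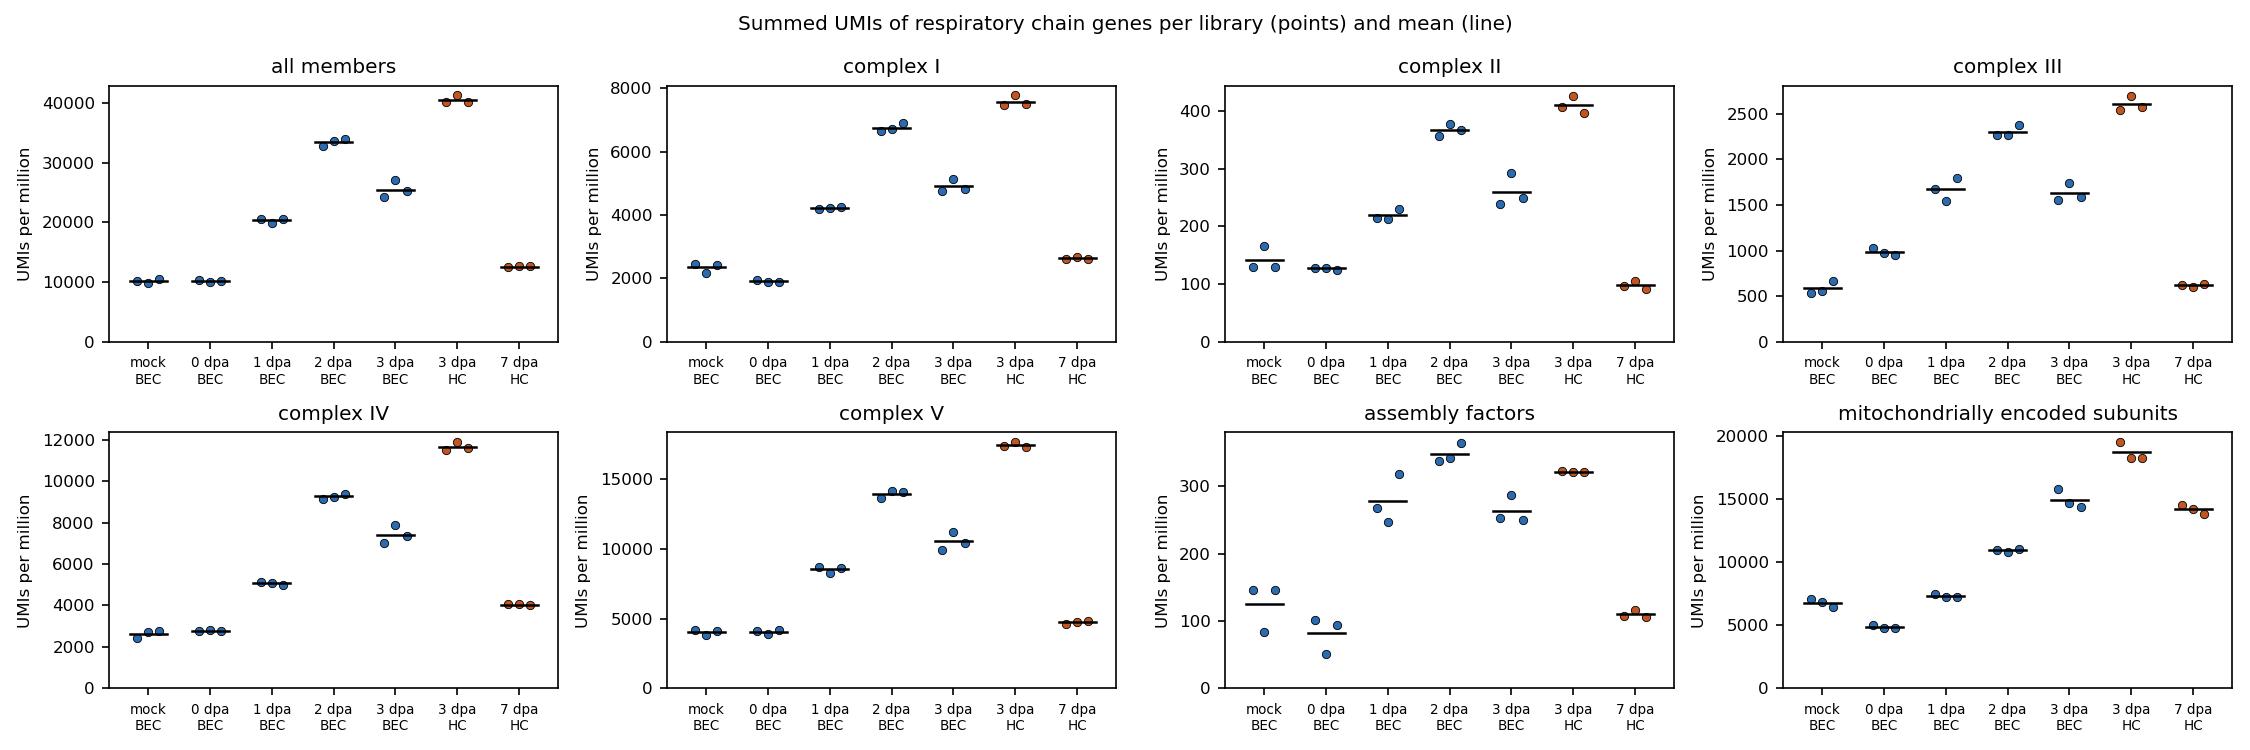
Summed level in CPM (linear axes from 0) of the members of each complex by state, with 1 point per library and a bar at the mean, in blue for BEC-like and orange for hepatocyte-like (HC) sums. Complexes I to V have their highest mean in 3 dpa hepatocyte-like cells, the assembly factors at 2 dpa, and the mitochondrially encoded subunits keep most of their 3 dpa level at 7 dpa.

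The mitochondrially encoded subunits, 13 genes outside the set, took a different course. Their mean level was 6785 CPM in mock, 4847 at 0 dpa, 10952 at 2 dpa and 18717 at 3 dpa, and it was still 14212 at 7 dpa, when the nuclear set stood at 12592. Mitochondrial ribosome genes, which build the translation machinery for those 13, reached their highest mean at 2 dpa with 6296 CPM against 1378 in mock and 1166 at 7 dpa. A list of 45 cytosolic ribosome genes stood at 169793 CPM at 7 dpa and 121439 at 3 dpa. It left out the large-subunit genes named rpl plus a number alone. The listed genes thus took up more of the UMIs over which every CPM value is formed. Tricarboxylic acid cycle genes, which supply NADH and succinate, moved with the set, from 569 CPM in mock to 1914 at 3 dpa and 797 at 7 dpa.

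Changes between states were tested per gene with edgeR's quasi-likelihood test and Benjamini-Hochberg adjustment over all 11082 genes of the fit, and a gene counts as higher or lower at an adjusted p under 0.05. The fit scales each sum by a factor from a shared set of genes, so a fitted log2 change can differ from the ratio of the CPM values, most of all at 7 dpa, where the factors were 0.65 to 0.692 against 1.14 to 1.147 at 3 dpa. At 0 dpa, 1 of 98 members was higher than in mock and 12 were lower, against 4.0% and 7.62% of all genes, with a median log2 change of -0.28 beside -0.35 for all genes. Those directions follow the scaling: the members called higher and lower were 4 and 5 by library size and 15 and 5 with DESeq2. Without mock replicate 1 the lower member calls fell to 5, and without mock replicate 3 to 7. Hepatocyte markers were also lower at 0 dpa (755 to 829.9 CPM) than in mock (2009.6 to 2909.7 CPM), and their part in these calls was not tested.

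From 0 to 1 dpa, 43 members rose and 4 fell, where 4.79% of all genes were called higher and 14.0% lower. The median member changed by 0.74 on the log2 scale and the median gene by -0.33. From 1 to 2 dpa, 80 rose and 0 fell (12.0% and 11.3% of all genes), with medians of 0.66 and 0.00. Members lower at an unadjusted p under 0.05 numbered 0 by edgeR, and DESeq2 called 0 lower.

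Hepatocyte-like cells at 3 dpa had 77 members higher and 3 lower than BEC-like cells at 2 dpa, while only 15.1% of all genes were higher and 38.0% were lower. Scaled by library size the member counts were 44 and 10. From 3 to 7 dpa the direction turned, with 8 members higher and 81 lower (15.5% and 25.5% of all genes) and a median of -1.0 against -0.18 for all genes. Library size gave 4 higher and 93 lower, and the higher calls that held under all 4 scalings were cox4i2, cox5b2, cox6a2 and cox7a1, of which cox4i2 lost its call without 7 dpa replicate 1.

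Libraries were also compared in CPM, without a fitted factor. All 3 libraries of the later state lay above all 3 of the earlier for 13, 84, 87, 58 and 4 members in the 5 steps in order, where 10.3%, 20.9%, 21.8%, 13.6% and 8.65% of all genes did so. They lay below for 13, 3, 1, 8 and 93 members, against 13.1%, 13.2%, 16.7%, 56.6% and 53.7% of all genes.

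Measured from mock, which enters all of the next values, 65 members were higher and 3 lower at 2 dpa (8.88% and 28.3% of all genes). Under all 4 scalings, 65 of the higher calls and 0 of the lower calls held. At 7 dpa 41 were higher and 3 lower (8.32% and 36.6%). The same sums also held macrophage markers, 10 genes of which grn2 was at 0 in mock. Their level was 1244 to 1712 CPM in mock and 391 to 726 at 0 dpa. BEC-like sums had 601 to 845 CPM of them at 1 dpa and 93.2 to 121 at 2 dpa. The part of these markers in the changes from mock was not tested. The 7 dpa count of higher members ranged from 18 by library size to 92 with DESeq2. The median of all genes against mock at 7 dpa moved from -1.73 to 0.21 between these scalings, so the distance of the members' median from it was taken as well. Over 4 scalings, that distance from 1 state to the next was 0.07 to 0.12 on reaching 0 dpa, 1.06 to 1.25 and 0.65 to 0.67 on reaching 1 and 2 dpa, 0.93 to 0.95 on reaching 3 dpa and -0.86 to -0.80 on reaching 7 dpa. The share of higher among all called genes, with its range over the other scalings in parentheses, was 34.4% (46.4% to 64.9%), 25.5% (54.2% to 69.3%), 51.4% (54.4% to 66.9%), 28.5% (18.6% to 55.6%) and 37.8% (12.9% to 50.8%) in these steps, 23.9% (45.1% to 64.8%) for 2 dpa against mock and 18.5% (12.4% to 62.7%) for 7 dpa against mock.

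**Figure D2:**
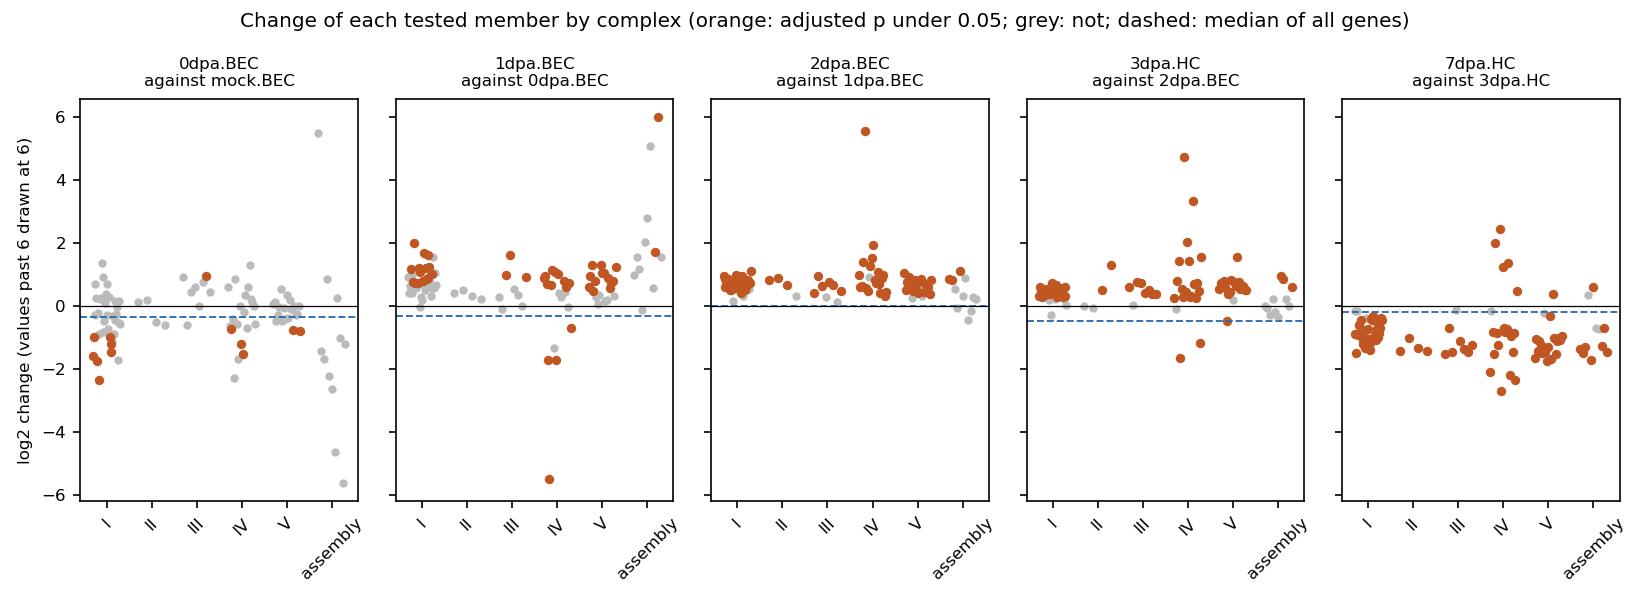
Fitted log2 change of each tested member between successive states, grouped by complex, with called members in orange, a dashed line at the median of all genes and changes past 6 drawn at 6. Most members lie above the dashed line at 1, 2 and 3 dpa and below it at 7 dpa, and the highest points of 3 dpa are cox5b2 (4.72) and cox7a1 (3.32).

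Complex I, the NADH dehydrogenase, held 2363 ± 156 CPM in mock (SD, n = 3 libraries), 1912 ± 36.6 CPM at 0 dpa, 4228 ± 42.7 CPM at 1 dpa and 6765 ± 133 CPM at 2 dpa. The 3 dpa libraries had 7586 ± 172 CPM and the 7 dpa libraries 2637 ± 41.8 CPM. Every 0 dpa library was below every mock library, and 7 of its 35 tested members were called lower. In later steps 15 rose at 1 dpa, 31 at 2 dpa and 30 at 3 dpa, and 32 fell at 7 dpa. Its most abundant member was ndufs5, an accessory subunit, with 218, 221 and 246 CPM in mock, 171, 232 and 167 at 0 dpa, 488, 493 and 478 at 2 dpa, 561, 589.9 and 574 at 3 dpa and 205, 208 and 192 at 7 dpa. The mock and 0 dpa libraries overlapped, and the 7 dpa values lay within their joint range. By edgeR, ndufs5 changed by 0.62 ± 0.11 (SE, adjusted p = 1.8e-07) at 2 dpa, 0.52 ± 0.09 (SE, adjusted p = 7.3e-08) at 3 dpa and -0.73 ± 0.10 (SE, adjusted p = 2.1e-12) at 7 dpa.

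A few complex I members departed from that course or marked its extremes. The accessory subunit ndufa5 had 48.5, 92.2 and 92.1 CPM in mock and 26.8, 6.43 and 15.7 at 0 dpa, a fitted change of -2.35 ± 0.56 (SE, adjusted p = 7.1e-04), and regained 99.3, 96.0 and 76.2 CPM at 1 dpa with 2.00 ± 0.44 (SE, adjusted p = 1.2e-04). Together with ndufa2 and ndufb8 it was lower at 0 dpa under all 4 scalings, and ndufa5, ndufb8 and the complex IV gene cox6a2 kept this call without any single library. The accessory subunit ndufb2 had 321, 348 and 337 CPM at 2 dpa and 452, 459.9 and 464 at 3 dpa. Its change of 0.73 ± 0.10 (SE, adjusted p = 3.5e-13) was the largest rise of the complex in that step. At the other end, ndufa1 stood at 373, 358 and 343 CPM at 3 dpa and 183, 198 and 175 at 7 dpa. It was thus lower in CPM in every 7 dpa library. Its fitted change of -0.17 there was not called (adjusted p = 0.18, edgeR), so its departure at 7 dpa lies in the scaling of the fit. Against mock, the largest complex I rise at 2 dpa was in ndufa9a, from 16.2, 0 and 15.4 to 122, 117 and 114 CPM (2.80 ± 0.56 (SE, adjusted p = 6.2e-06)). The mock sums held only 108481 to 130255 UMIs, so these mock values, and the rank, rest on very few UMIs.

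Complex II, the succinate dehydrogenase that also serves the tricarboxylic acid cycle, was the least abundant, with 129, 166 and 131 CPM in mock, 356, 377 and 368 at 2 dpa, 407, 427 and 397 at 3 dpa and 97.6, 105 and 92.5 at 7 dpa. All 4 tested members fell at 7 dpa, and the 7 dpa libraries lay below every mock library in CPM. Against mock, however, 0 of the 4 were called at 7 dpa, and complex II had a median log2 change of -0.10 beside -1.30 for all genes. The membrane anchor sdhc was its leading member at 169, 182 and 173 CPM at 3 dpa and 42.9, 45.7 and 32.9 at 7 dpa (-1.33 ± 0.14 (SE, adjusted p = 5.2e-20)). The iron-sulfur subunit sdhb rose at 2 dpa to 111, 123 and 109 CPM (0.88 ± 0.17 (SE, adjusted p = 4.1e-06)), as did the flavoprotein sdha, and neither was called between 2 and 3 dpa. The other anchor gene, sdhdb, changed at 3 dpa instead, from 42.2, 48.1 and 54.8 to 99.0, 103 and 95.4 CPM (1.30 ± 0.13 (SE, adjusted p = 1.5e-20)). Its paralogue sdhda had 8 UMIs over the 3 dpa hepatocyte-like sums, and how any reads shared by the pair were assigned is not known.

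Complex III was the exception at 0 dpa. Its sum went from 533, 553 and 668 CPM in mock to 1033, 971 and 955 at 0 dpa, 2265, 2269.5 and 2381 at 2 dpa, 2538, 2697 and 2575 at 3 dpa and 627, 605 and 635 at 7 dpa. At 0 dpa all libraries were above all mock libraries, and the median member changed by 0.53, compared with -0.30 in complex I. The hinge subunit uqcrh, which helps cytochrome c dock, was the 1 member of the whole set called higher at 0 dpa, with 242, 119.8 and 207 CPM in mock and 444, 412 and 386 at 0 dpa (0.94 ± 0.22 (SE, adjusted p = 7.0e-04)). That call held under all 4 scalings and without any single library. Of the 8 members, 3 rose at 1 dpa, 6 at 2 dpa and 7 at 3 dpa, and 7 fell at 7 dpa.

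Among these, the small subunit uqcrq had 187, 129 and 162 CPM at 0 dpa, 420.3, 359.8 and 437 at 1 dpa and 149, 161 and 146 at 7 dpa, with a rise of 0.93 ± 0.19 (SE, adjusted p = 1.8e-05) and a later fall of -1.24 ± 0.10 (SE, adjusted p = 1.2e-30). The small subunit uqcr10 was at 441, 473 and 457 CPM at 3 dpa and 95.3, 93.4 and 86.8 at 7 dpa (-1.53 ± 0.11 (SE, adjusted p = 6.1e-38)). One gene of the core protein pair, uqcrc2a, was not called at 7 dpa (-0.12, adjusted p = 0.575), while uqcrc2b fell by 1.12 ± 0.15 (SE, adjusted p = 9.1e-13). Reads of these copies may have been shared between them in counting.

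Complex V, the ATP synthase, held the most UMIs of any complex in each of the 6 states from mock BEC-like to 7 dpa hepatocyte-like cells, with means from 4039 ± 197 CPM in mock to 17438 ± 182 at 3 dpa and 4726 ± 102 at 7 dpa. Of its 19 members, 13 rose at 1 dpa, 17 at 2 dpa and 17 at 3 dpa, and 17 fell at 7 dpa. The small catalytic-sector subunit atp5f1e had 412, 341 and 484 CPM in mock, 1951, 1939 and 1999 at 3 dpa and 516, 509 and 568 at 7 dpa. Its 3 dpa libraries lay above all others, and its change to 7 dpa was -1.11 ± 0.09 (SE, adjusted p = 3.2e-33). The catalytic subunit atp5f1b rose at 2 dpa by 1.06 ± 0.10 (SE, adjusted p = 4.4e-24) and fell at 7 dpa by 1.64 ± 0.10 (SE, adjusted p = 2.3e-56), from 1206, 1158 and 1105 to 213, 218 and 219.5 CPM.

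The membrane rotor of complex V is built from subunit c, whose genes did not fall alike at 7 dpa. atp5mc3b went from 1751, 1788 and 1724 CPM at 3 dpa to 803, 828 and 805 at 7 dpa (-0.33 ± 0.08 (SE, adjusted p = 3.9e-04)). For atp5mc1 the values were 1347, 1420.3 and 1334 and 234, 231 and 253 CPM (-1.73 ± 0.09 (SE, adjusted p = 1.7e-64)). The atp5mc3b call was lost with default TMM factors (-0.07), and the difference between these 2 genes was not tested. The subunit e gene atp5mea had 51.9, 56.9 and 45.1 CPM at 2 dpa and 126, 119 and 127 at 3 dpa, the largest rise of the complex in that step (1.56 ± 0.13 (SE, adjusted p = 1.6e-30)), and its 7 dpa libraries held 96.4, 98.2 and 89.1 CPM.

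The inhibitory factor gene atp5if1a, whose mammalian product blocks ATP hydrolysis by the synthase, was the complex V member called lower at 3 dpa. Its libraries held 275, 147 and 192 CPM in mock, 332, 257 and 407 at 0 dpa, 613, 665 and 681 at 2 dpa, 383, 389 and 393 at 3 dpa and 81.4, 79.1 and 82.3 at 7 dpa. It fell at 3 dpa (-0.47 ± 0.09 (SE, adjusted p = 9.6e-07)), where 17 complex V members rose, but this was not called with default TMM factors (-0.19) or DESeq2 (-0.07). It was lower at 7 dpa than at 3 dpa under all 4 scalings (-1.48 ± 0.11 (SE, adjusted p = 1.6e-34)). Its lower level at 7 dpa than in mock (-0.90), a call lost without mock replicate 1, became a higher one, 0.57, with default TMM factors and 0.80 with DESeq2.

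Complex IV, the cytochrome c oxidase, held 2415, 2719 and 2764 CPM in mock, 2751, 2798 and 2788 at 0 dpa, 5144, 5098 and 4993 at 1 dpa, 9145, 9252 and 9399 at 2 dpa, 11486, 11879 and 11588 at 3 dpa and 4073, 4057 and 3999.7 at 7 dpa. Of 20 members, 10 rose and 4 fell at 1 dpa, 19 rose at 2 dpa, 17 rose and 2 fell at 3 dpa, and 5 rose and 14 fell at 7 dpa. Its abundant single-copy subunits followed the set. cox7b had 210.0, 230.5 and 284 CPM in mock, 1631, 1665 and 1669 at 3 dpa and 339, 359 and 343 at 7 dpa, with changes of 0.72 ± 0.08 (SE, adjusted p = 1.9e-16) and -1.47 ± 0.09 (SE, adjusted p = 4.0e-52) in the last steps. For cox7c the 3 and 7 dpa libraries held 1287, 1359.7 and 1313 and 406, 435 and 442 CPM (-0.85 ± 0.09 (SE, adjusted p = 1.9e-19)), and for cox6c 809, 841 and 817 and 298, 313 and 251 CPM (-0.74 ± 0.09 (SE, adjusted p = 6.4e-14)).

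In the subunit Vb, VIa, VIIa and VIII families of complex IV, however, paralogues went opposite ways between 3 and 7 dpa in the fit, with the exception that cox8b was lower by library size. The subunit Vb gene cox5b2 had 6.95, 3.52 and 1.33 CPM at 2 dpa, 79.2, 102 and 77.8 at 3 dpa and 287, 262 and 264 at 7 dpa, with changes of 4.72 ± 0.23 (SE, adjusted p = 1.8e-80) and 2.44 ± 0.11 (SE, adjusted p = 3.1e-87). COX5B, the other subunit Vb gene, went from 883, 908 and 903 to 110.4, 125 and 134 CPM in the last step (-2.09 ± 0.10 (SE, adjusted p = 6.3e-75)). Of the UMIs of this pair, cox5b2 held 0.751, 0.388 and 0.141% at 2 dpa, 8.23, 10.1 and 7.94% at 3 dpa and 72.2, 67.7 and 66.4% at 7 dpa.

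The subunit VIa gene cox6a2 was already the larger part of its family in mock, with 72.7, 59.0 and 71.7% of the family's UMIs. It fell at 0 dpa (-1.21 ± 0.28 (SE, adjusted p = 6.6e-04)), a call lost with default TMM factors (-0.83, adjusted p = 0.054), and at 1 dpa (-1.73 ± 0.30 (SE, adjusted p = 2.3e-07)), to 11.8, 11.6 and 11.6%. It then rose at 2, 3 and 7 dpa (1.52, 2.03 and 1.23 ± 0.09 (SE, adjusted p = 2.7e-36)), and held 32.2, 31.3 and 33.3% at 3 dpa and 87.9, 87.0 and 88.8% at 7 dpa. Its partner cox6a1 reached 891, 925 and 859 CPM at 3 dpa and had 83.6, 80.5 and 75.4 at 7 dpa, the largest fall of any member in that step (-2.70 ± 0.11 (SE, adjusted p = 6.5e-103)).

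For subunit VIIa, cox7a1 had 13.9, 17.0 and 12.8 CPM at 2 dpa, 115, 132 and 114 at 3 dpa and 201, 177 and 168 at 7 dpa, with changes of 3.32 ± 0.16 (SE, adjusted p = 1.2e-75) and 1.38 ± 0.11 (SE, adjusted p = 7.7e-32). cox7a2a went from 991, 981 and 973 to 142, 116 and 113 CPM between the last of these states (-2.20 ± 0.10 (SE, adjusted p = 2.0e-81)). COX7A2, another gene of this family, was not called at 3 dpa (-0.08) or 7 dpa (-0.17). cox7a2l, whose mammalian counterpart takes part in joining complexes III and IV, was higher at 3 dpa (0.26), but not called by library size (-0.01) or when 1 of 3 libraries was left out (2 dpa replicate 1 or 3, or 3 dpa replicate 2), and lower in counts with background subtracted (-0.41).

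For subunit VIII, cox8b had 178, 164 and 148 CPM at 2 dpa, 387, 395 and 406 at 3 dpa and 309.9, 331 and 323 at 7 dpa. Its rise at 3 dpa (1.56 ± 0.10 (SE, adjusted p = 1.6e-46)) was called, and its change at 7 dpa was 0.48 in the fit but -0.30 by library size. Its partner cox8a fell already at 3 dpa, from 286, 338 and 334 to 111, 127 and 115 CPM (-1.17 ± 0.10 (SE, adjusted p = 9.2e-27)), and had 13.4, 14.3 and 12.5 CPM at 7 dpa (-2.35 ± 0.18 (SE, adjusted p = 2.5e-33)). It was lower at 7 dpa than in mock under all 4 scalings.

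As a description, made after these values were seen and so without a test, cox5b2, cox6a2, cox7a1 and cox8b were summed as a share of themselves and COX5B, cox6a1, cox7a2a and cox8a. Such a share does not depend on the scaling. It was 50.0, 43.5 and 55.5% in the mock libraries, 30.4, 29.5 and 29.6% at 0 dpa, 11.5, 10.8 and 8.63% at 1 dpa, 11.1, 9.83 and 9.18% at 2 dpa, 25.9, 26.3 and 26.5% in 3 dpa hepatocyte-like cells and 80.1, 79.6 and 80.1% in 7 dpa hepatocyte-like cells. The libraries of 7 dpa lay above all of the earlier ones, and those of 1 and 2 dpa below those of the other states. The 1 library of GFP+ hepatocyte-like cells had 81.9%, and uninjured mCherry+ BEC-like cells had 41.2, 42.1 and 49.3%.

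The free RNA of the same libraries gave like shares. Barcodes below the cell threshold had 50.3% in mock, 6.12% at 1 dpa, 26.1% at 3 dpa and 78.8% at 7 dpa. Hepatocyte markers in the BEC-like sums were at 2009.6 to 2909.7 CPM in mock, 1087 to 1450.0 CPM at 1 dpa and 2920.1 to 3567 CPM at 2 dpa, and the part of free hepatocyte RNA in the mock share was not tested.

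**Figure D3:**
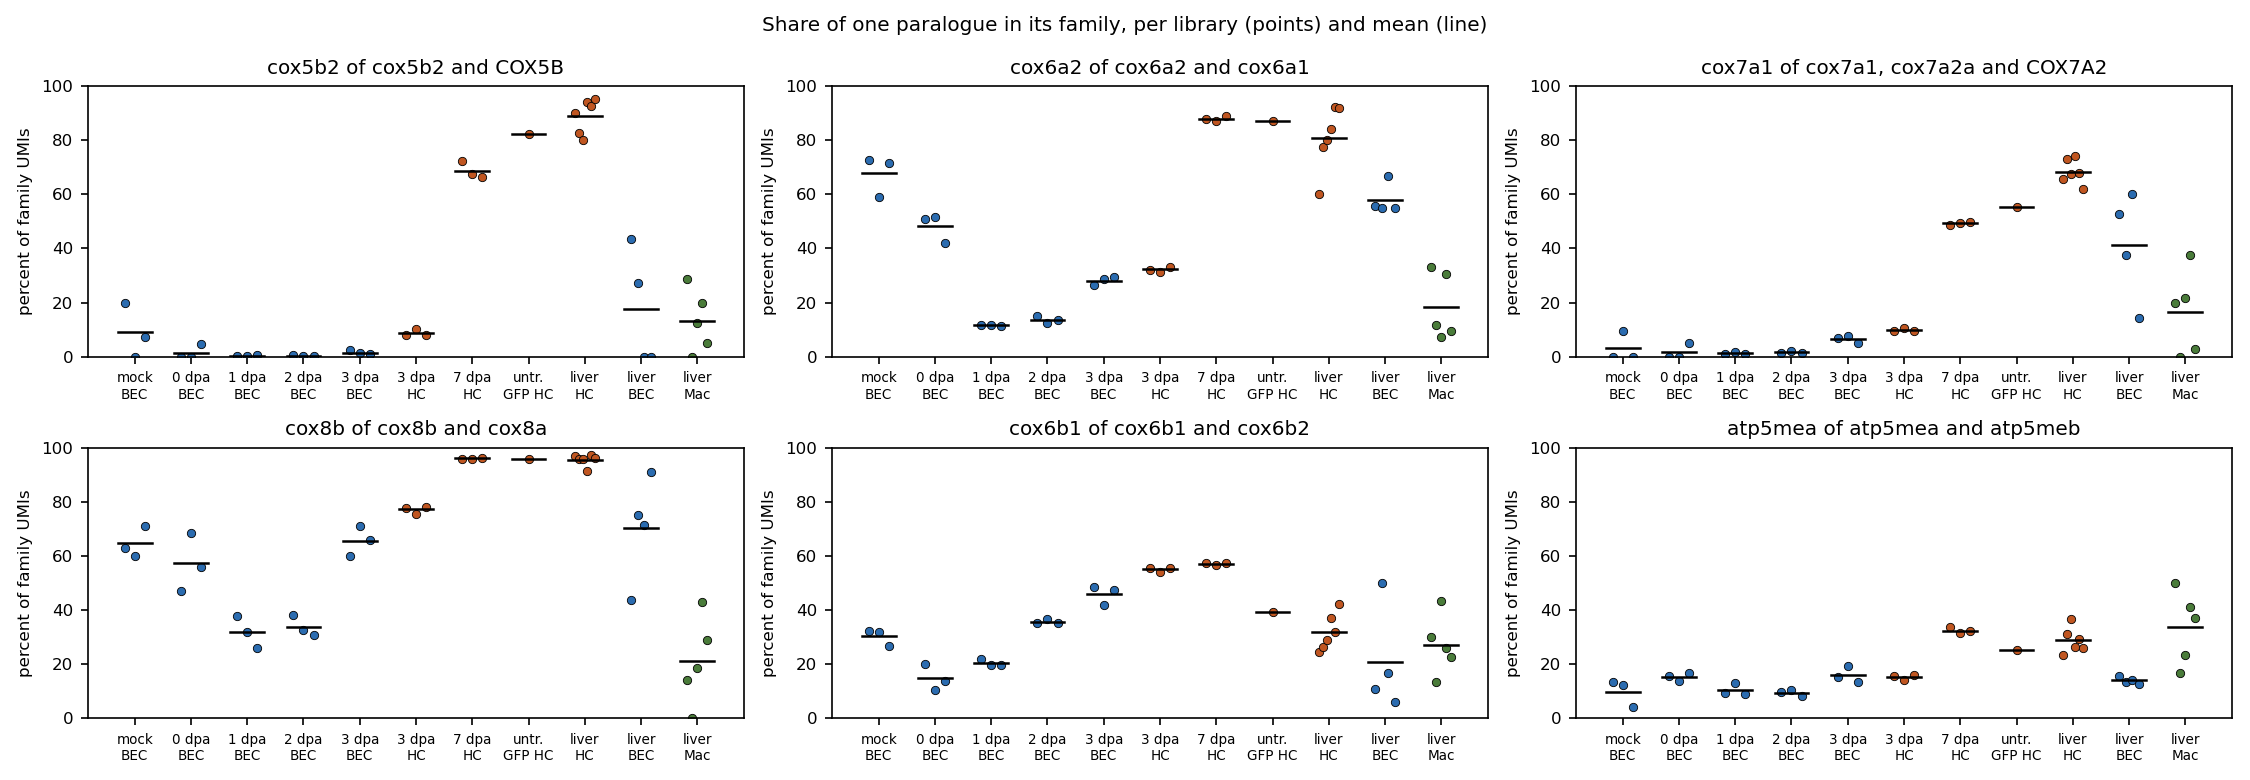
Share of family UMIs, in percent, held by cox5b2, cox6a2, cox7a1, cox8b, cox6b1 and atp5mea in sorted states and in 3 types of the uninjured liver (Mac, macrophage-like), with 1 point per library and a bar at the mean. The shares of the first 4 are higher in 7 dpa than in 3 dpa hepatocyte-like cells in every library, and cox5b2 goes from 0.427% at 2 dpa to 68.8% at 7 dpa.

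In the subunit IV family, cox4i1, the common form, rose at 1, 2 and 3 dpa and fell at 7 dpa (-0.81 ± 0.09 (SE, adjusted p = 4.7e-17)), and cox4i1l fell as well (-1.53 ± 0.15 (SE, adjusted p = 1.2e-21)). cox4i2, known in mammals as a form of the lung that answers to low oxygen, was rare, with 5, 0 and 4 UMIs in the mock libraries, 1, 1 and 1 at 0 dpa and 0 of them at 1 dpa. With 3 counts as the limit for 1 dpa, 2 dpa was at least 5.71-fold higher than 1 dpa. The same limit put 1 dpa 3.98-fold below 0 dpa. The 0 dpa counts were as few as that limit, so this value reflects the depth of the sums and is no lower bound. The call for that fall was lost without 0 dpa replicate 2. Between 3 and 7 dpa cox4i2 went from 2.15, 2.13 and 1.80 to 8.36, 2.73 and 3.40 CPM (2.00 ± 0.48 (SE, adjusted p = 1.6e-04)), opposite to its family, and this call too was lost without 7 dpa replicate 1. For subunit Va, cox5aa and cox5ab both fell at 7 dpa (-0.85 and -1.22).

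Subunit VIb differed between its genes in the early steps. cox6b1 had 72.7, 119.8 and 84.5 CPM in mock, 42.8, 32.2 and 31.3 at 0 dpa, 95.2, 94.5 and 99.3 at 1 dpa, 375, 396 and 376 at 2 dpa and 854, 854 and 855 at 3 dpa. It rose by 1.95 ± 0.13 (SE, adjusted p = 1.6e-42) at 2 dpa and 1.44 ± 0.09 (SE, adjusted p = 1.3e-48) at 3 dpa. cox6b2 held 153, 258 and 230.3 CPM in mock, 693, 681 and 688 at 2 dpa and 682, 729 and 687 at 3 dpa, with 0.84 and 0.30 in the same steps, the latter not called by library size (0.02), and both fell at 7 dpa.

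The assembly factors, which help the complexes form without staying in them, were rare. Their sum was 145, 83.0 and 146 CPM in mock, 102, 51.5 and 94.0 at 0 dpa, 268, 247 and 318 at 1 dpa, 338, 342 and 365 at 2 dpa, 323, 322 and 322 at 3 dpa and 108, 117 and 106 at 7 dpa. Unlike the complexes, it had its highest mean at 2 dpa. Of 11 tested, 2 rose at 1 dpa, 3 at 2 dpa and 3 at 3 dpa, and 7 fell and 1 rose at 7 dpa. sdhaf2, which attaches flavin to the succinate dehydrogenase, rose from 10.7, 19.3 and 20.9 CPM at 0 dpa to 83.0, 48.8 and 89.8 at 1 dpa (1.73 ± 0.46 (SE, adjusted p = 0.00209)). sdhaf3 had 0 UMIs at 0 dpa and 25, 13 and 23 UMIs at 1 dpa, at least 5.10-fold higher. ndufaf3, a complex I factor, was not called in any of the 5 steps, and sdhaf4 rose at 3 dpa (0.60) and fell at 7 dpa (-1.47). NDUFAF8 had 0 UMIs in mock and was at least 3.37-fold higher at 2 dpa. The assembly factors outside the set showed 3 of 25 higher at 1 dpa and 20 of 25 lower at 7 dpa.

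In the ndufa4 family only ndufa4l was tested. Its mammalian relative NDUFA4 is now counted with complex IV. It had 323, 313 and 269 CPM in mock, 529, 499 and 515 at 3 dpa and 333, 367 and 363 at 7 dpa, and its fitted change at 7 dpa was 0.24 ± 0.09 (SE, adjusted p = 0.0246), higher in the fit, while the CPM values were lower at 7 than at 3 dpa. The call was lost when 1 of 4 libraries was left out (replicate 2 or 3 of 3 dpa, or replicate 2 or 31 of 7 dpa, as labelled). It also did not hold under all 4 scalings.

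Regulators of these genes were read from a list of 9. pprc1, a coactivator of nuclear genes for respiration related to PGC-1, had 0 UMIs in the mock BEC-like sums and 246, 225 and 209 CPM at 0 dpa, at least 27.4-fold higher (adjusted p = 3.5e-18, edgeR). Its level then went to 156, 174 and 170.1 CPM at 1 dpa, 128, 145 and 136 at 2 dpa, 80.2, 69.9 and 72.2 at 3 dpa and 11.7, 10.9 and 17.6 at 7 dpa. It was thus highest when the set's sum was at the mock level, and lower in each state in which that sum was higher. The mitochondrial transcription factor gene tfb2m rose at 0 dpa (2.44 ± 0.78 (SE, adjusted p = 0.0219)), from 0, 9.22 and 15.4 to 53.5, 32.2 and 62.7 CPM, and its mock values rest on very few UMIs.

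tfam, which packs and transcribes mitochondrial DNA, followed the set, with 21.4, 19.3 and 36.5 CPM at 0 dpa, 87.2, 117 and 92.8 at 2 dpa, 100.5, 101 and 99.9 at 3 dpa and 22.9, 8.86 and 18.2 at 7 dpa. It rose at 2 dpa (0.81 ± 0.18 (SE, adjusted p = 7.7e-05)) and fell at 7 dpa (-1.77 ± 0.18 (SE, adjusted p = 3.9e-21)). The coactivator ppargc1a was rare and was called higher at 7 dpa in the fit (1.19 ± 0.41 (SE, adjusted p = 0.0107)). Its CPM values went from 3.66, 3.72 and 4.50 to 7.25, 4.77 and 3.97, with overlapping libraries. The scaling factors, lower at 7 dpa than at 3 dpa, add to the fitted value. Its relative ppargc1b fell at 3 dpa (-0.41), as did gabpa (-0.90), a DNA-binding factor for promoters of respiration genes. In that step 38.0% of all genes were lower and the median gene changed by -0.485, more than ppargc1b did. Over the 4 scalings that median ran from -0.754 to -0.096. esrra was not called in any step, and nrf1 and polrmt had too few UMIs for the fit over all states.

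**Figure D4:**
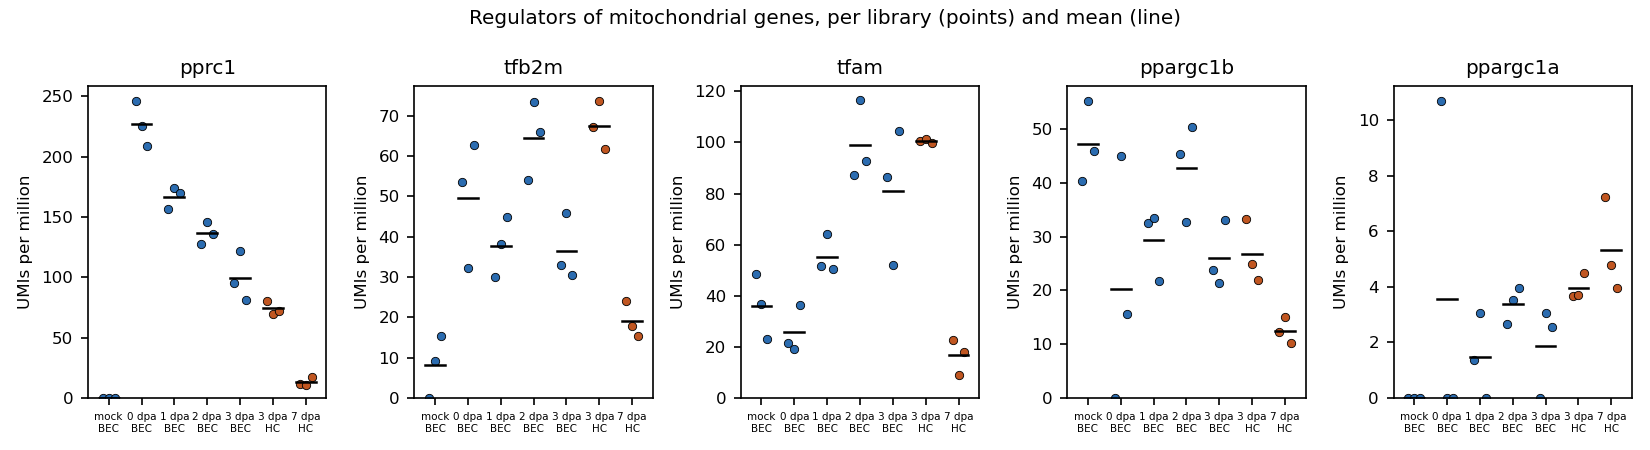
Level in CPM of pprc1, tfb2m, tfam, ppargc1a and ppargc1b by state, with 1 point per library and a bar at the mean. pprc1 goes from 0 in every mock library to 246, 225 and 209 CPM at 0 dpa and declines afterwards, while tfam is highest at 2 and 3 dpa.

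At 3 dpa the sort held both BEC-like and hepatocyte-like cells, which were compared within libraries among 7538 genes. The set's sum was 24163, 27060.0 and 25198 CPM in BEC-like and 40120.0, 41256 and 40206 CPM in hepatocyte-like cells, higher in the latter in 3 of 3 libraries. For 85 members all hepatocyte-like sums were above all BEC-like sums and for 1 below, compared with 19.6% and 26.1% of all genes. Of 98 members, 75 were higher in hepatocyte-like cells and 1 was lower, against 10.3% and 19.0% of all genes, with medians of 0.59 and -0.20. By complex the higher calls were 31 of 35 in complex I, 2 of 4 in II, 8 of 8 in III, 16 of 20 in IV and 18 of 19 in V. No assembly factor of 11 was called, and 0 were higher at an unadjusted p under 0.05. These genes were rare, and 10 of the 11 changes were positive, with a median of 0.447. cox5b2 had the largest difference, with 17.9, 9.16 and 7.65 CPM in BEC-like cells (2.83 ± 0.32 (SE, adjusted p = 1.6e-07)), and cox4i2 was the member called lower, a call lost without 3 dpa replicate 3. The BEC-like sums of 3 dpa also held hepatocyte markers at 30089.6 to 38492 CPM, so the contrast is between sums that share such transcripts.

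BEC-like cells at 3 dpa were thus below those of 2 dpa in CPM, and the few at 7 dpa (58 cells) held 12165, 12269 and 8096 CPM. Hepatocyte-like cells of 2 dpa, 52 in all, had 29276, 31142 and 30847 CPM. Their sums carried both kinds of markers, with hepatocyte markers at 7190 to 10317 CPM and BEC markers at 5961 to 8234 CPM. Uninjured mCherry+ BEC-like cells held 7602, 7996 and 7838 CPM, below every mock library, and the 44 hepatocyte-like cells of mock 6972, 3976 and 6332 CPM. The GFP+ hepatocyte-like library, without a replicate, had 7549 CPM, beside 12592 at 7 dpa.

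In the uninjured livers, sums of at least 10 cells could be formed for 9 named types. The set's sum was highest in hepatocyte-like cells, with 8678, 11416 and 13995 CPM as the lowest, median and highest of 6 libraries, followed by BEC-like cells with 11040.0, 11917, 10466 and 10109.7 CPM. The ranges of these types overlapped. Means were 9002 CPM in macrophage-like, 7254 in erythrocyte-like, 6864 in stellate-like, 6239 in acinar-like, 5861 in lymphocyte-like, 5765 in endothelial-like and 2893 in neuron-like cells. Each pair of neighbours in this order had overlapping ranges. The hepatocyte-like libraries spread widely, with an SD of 1874 CPM. Hepatocyte markers made up 3380.2 to 26336 CPM in macrophage-like sums, so free hepatocyte RNA was present in the other types. They reached 6821 to 84006 CPM in erythrocyte-like and 52922 to 57019 CPM in acinar-like sums, beside 83690 to 105555 CPM in hepatocyte-like sums.

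Only 40 members passed the filter there, and among 1972 genes each type was set against the average of the remaining types, blocking on library. The 40 were 4 members of complex I, 2 of complex III, 15 of complex IV, 18 of complex V and ndufa4l. Complex II and the assembly factors had 0. The filter read the same sums, so a member could pass through the type in which it stood high. A higher call of such a member in that type is not independent of the filter. Hepatocyte-like cells had 23 higher and 1 lower (20.3% and 16.3% of all genes), with a median of 0.74 beside -0.56. Without uninjured liver replicate 5, 6 were higher, and with cells named from counts without background subtraction, 8. Largest were cox5b2 (2.08 ± 0.37 (SE, adjusted p = 1.7e-05)), cox7a1 (1.90 ± 0.33 (SE, adjusted p = 1.1e-05)), cox6a2 (1.71 ± 0.33 (SE, adjusted p = 6.7e-05)) and atp5mc3b (1.46 ± 0.24 (SE, adjusted p = 5.3e-06)). cox5b2 ranged over 118, 241 and 299 CPM in hepatocyte-like cells, given as lowest, median and highest. cox8b was higher (1.40) and cox8a lower (-2.10), at 8.25 CPM on average. Both calls were lost without uninjured liver replicate 5, and that of cox8a with DESeq2 (-0.76). The higher calls that held without any single library were 5 of the 23: cox5b2, cox7a1, cox6a2, atp5mc3b and cox5aa.

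In macrophage-like cells, 6 of the 40 were higher and 1 lower, smaller shares than the 26.4% and 8.77% of all genes. The higher ones included partner genes of those above: cox8a (2.85 ± 0.43 (SE, adjusted p = 7.5e-07)), COX5B (2.81 ± 0.47 (SE, adjusted p = 6.2e-06)) and cox6a1 (2.39 ± 0.43 (SE, adjusted p = 1.6e-05)). The partner cox7a2a did not pass the filter, which read these same sums. Also higher were atp5if1a, atp5mc1 and atp5pd, and cox7a1 was lower (-1.52 ± 0.56 (SE, adjusted p = 0.0283)). The calls of cox8a, COX5B and cox6a1 held without any single library, and the other 4 did not. That of cox7a1 was lost without replicate 1, 2, 4 or 5, and by library size (-1.40). COX5B had 97.2, 201, 252, 199 and 258 CPM in 5 libraries. The share of cox5b2, cox6a2, cox7a1 and cox8b defined above was 18.1 ± 11.2% in macrophage-like cells (SD, n = 5), 35.9 ± 21.0% in lymphocyte-like (n = 4), 55.0 ± 7.79% in BEC-like (n = 4), 60.2 ± 14.7% in endothelial-like (n = 6) and 83.8 ± 5.01% in hepatocyte-like cells (n = 6). On fewer UMIs, it was 88.5 ± 9.99% in erythrocyte-like (n = 3), 81.4 ± 17.6% in neuron-like (n = 4), 72.5 ± 3.54% in acinar-like (n = 2) and 46.1 ± 23.9% in stellate-like cells (n = 3). The neuron-like sum of replicate 3 held no UMIs of these genes and so has no share. Barcodes below the cell threshold had 73.5%, so shares between those of macrophage-like and hepatocyte-like cells cannot be told apart from a mixture with free RNA. The part of free hepatocyte RNA in the erythrocyte-like share was not tested either.

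BEC-like cells had 4 of the 40 members called higher, a smaller share than the 16.4% of all genes. They were of complex V, which held 18 of the 40: atp5if1a (2.61 ± 0.54 (SE, adjusted p = 2.6e-04)), atp5po (1.22 ± 0.33 (SE, adjusted p = 0.00536)), atp5meb (1.02 ± 0.35 (SE, adjusted p = 0.0302)) and atp5f1e (0.90 ± 0.27 (SE, adjusted p = 0.0124)). Without uninjured liver replicate 3, 2 were called. atp5if1a had 117, 363, 248 and 227 CPM in the 4 BEC-like sums and 25.5, 50.5 and 91.8 CPM as lowest, median and highest in hepatocyte-like sums.

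The other types gave few calls. Lymphocyte-like cells had 3 lower (9.13% of all genes), cox7a1 (-1.90), atp5f1c (-1.55) and atp5po (-1.16), and none of these counts held without replicate 1, 3, 4 or 5, when 0 were called. Endothelial-like cells had atp5f1e lower (-0.84 ± 0.27 (SE, adjusted p = 0.0203), 0.71% of all genes), a call lost without replicate 2 or 3. In erythrocyte-like cells, cox5b2 was higher (2.20 ± 0.56 (SE, adjusted p = 0.0163)) at 29 UMIs, and COX5B, with 0 UMIs, was lower, against 2.38% and 0.456% of all genes. Without replicate 1 or 5 neither was called, and COX5B lost its call as well without replicate 2, 3 or 4, with default TMM factors and with DESeq2. The part of free hepatocyte RNA in the cox5b2 call was not tested.

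**Figure D5:**
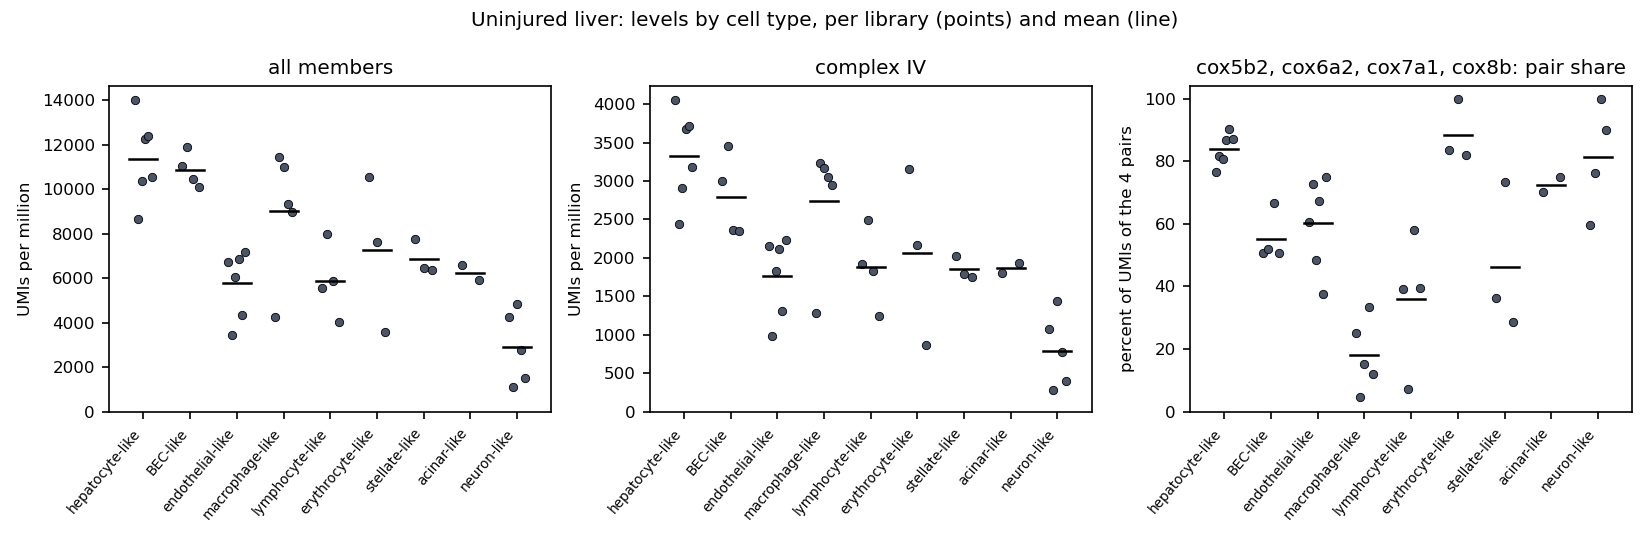
Summed level in CPM of the set and of complex IV, and share in percent of cox5b2, cox6a2, cox7a1 and cox8b among themselves and their 4 partners, for each named type of the uninjured liver, with 1 point per library and a bar at the mean. Hepatocyte-like libraries lie between 8678 and 13995 CPM, and the macrophage-like libraries have the lowest mean share.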

How the data were processed

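Adult zebrafish liver cells were profiled by Drop-seq in 28 libraries, 22 of sorted cells and 6 of all liver cells. The deposited values are raw UMI counts per gene and barcode, which the authors obtained by aligning reads to GRCz11 with STAR 2.5.3 after quality control with FastQC 0.11.2, versions as given in the submitters' processing notes. How reads shared by paralogues were counted is not given in the sources used here. The members and the gene lists were chosen with earlier results of these data known, and names match the rule in either case of letters.

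Barcodes above a library's mean UMI total were called cells, after the study's slope rule. Background at the 95th percentile was subtracted for clustering and naming only (Leiden, resolution 2, on 30 components of 2000 variable genes, with members and mitochondrial genes left out). To be named, a cluster needed at least 30 cells, 3 markers detected in 5% of cells, and a marker score of 0.08 that was also 2 times that of the runner-up. Doublets were not removed, and cell type names can differ from the study's. Raw UMIs were summed over at least 10 cells per library and type.

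Sums were tested with edgeR 4.0.16 (R 4.3.3) by the quasi-likelihood test with Benjamini-Hochberg adjustment over all genes passing filterByExpr, at 0.05. Scaling used TMM factors from the genes of at least 100 CPM on average against 1 common reference. Library was a block within 3 dpa and within uninjured liver. The fits were run on simulated counts with a shared mean profile, in which a small set of genes was changed up or down at random. Such counts cannot check the scaling where many genes change the same way. A fold against a state without UMIs is taken against 3 counts over that state, with the counts of the other state as observed. Values per complex are CPM with SD over libraries, without a test. Library totals ran from 926798 to 7296066 UMIs, and lower bounds against 0 counts cover only the counting error of the state without UMIs. Genes named in the text are the 3 most abundant members per complex, the 3 largest called rises and falls of each comparison, all members of complex IV families, 9 regulators, and members whose calls depend on 1 library. A few others that mark a departure within a complex were chosen after their values were seen: sdha, atp5mea, atp5mc1, atp5f1b, uqcrc2a, uqcrc2b and atp5if1a where the rule did not already name them. Alternatives were library size, default TMM factors, DESeq2 1.42.0 size factors and test, no filter, counts with background subtracted, cells of at least 300 UMIs, removal of the top 5% by doublet score, names from counts without background subtraction, a replicate block, fits of 2 states only and leaving out each library. Clusters came from leidenalg 0.10.2 and scikit-learn 1.9.0 under Python 3.11.15.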

Additional observations from a re-analysis of the deposited data

Results flagged for a closer look

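In the uninjured liver, 4 of 42 groups of complex sums with 4 to 10 libraries held a library whose gap to the nearest other passed Dixon's critical value, where chance flags about 1 in 20. For complex IV in macrophage-like cells, replicate 1 had 1282.5 CPM (66 UMIs) and the others 2946.8 to 3237 CPM. For complex II in endothelial-like cells, replicate 5 had 163.2 CPM, on 4 UMIs, and the others 75.3 to 101.2 CPM. Assembly factors stood at 200.5 CPM (7 UMIs) in macrophage-like cells of replicate 2, against 72.1 to 83.8 CPM, and at 93.0 CPM (18 UMIs) in neuron-like cells of replicate 4, against 0 to 18.4 CPM.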

How the results depend on the processing

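The numbers of members called depended on scaling, on background and, in the uninjured liver, also on the filter, the names and single libraries. At 0 dpa the 12 lower calls became 5 by library size, 3 with default TMM factors, 5 with DESeq2, 7 without the filter and 7 with background subtracted (5 to 11 with 1 library left out). At 1 dpa the 43 higher calls became 73, 77 and 80 under the first 3 of these (29 to 41), at 3 dpa the 77 became 44 by library size (71 to 75), and at 7 dpa against mock the 41 became 18, 87 and 92 (31 to 39). The share of higher among all called genes, with its range over the other scalings, was 55.5% (59.6% to 72.5%) for hepatocyte-like, 74.1% (66.1% to 91.2%) for BEC-like, 96.8% (88.5% to 98.9%) for endothelial-like, 75.0% (65.0% to 81.0%) for macrophage-like, 68.3% (64.6% to 73.3%) for lymphocyte-like and 83.9% (71.7% to 89.8%) for erythrocyte-like cells, and 35.2% (41.0% to 54.7%) between the 3 dpa branches. Leaving out 1 library gave 75 to 80 at 2 dpa, 78 to 82 lower at 7 dpa, 56 to 65 at 2 dpa against mock and 62 to 70 between the 3 dpa branches. With background subtracted, 57 were higher at 2 dpa, 55 at 3 dpa and 61 lower at 7 dpa. Replicate numbers did not pair the samples, since samples with the same number had correlations of -0.077 to 0.14 over 844 genes. With the replicate number as a block the counts were 10, 42, 79, 77 and 78 in the 5 steps and 65 and 42 against mock, and without the library block 75 between the 3 dpa branches and 20 in uninjured hepatocyte-like cells.

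In the uninjured liver the 23 higher calls of hepatocyte-like cells became 35 with default TMM factors, 38 with DESeq2, 10 without the filter and 8 with names from counts without background subtraction (6 to 22 with 1 library left out). The 4 of BEC-like cells became 13 by library size, 2 with default TMM factors and 1 with background subtracted (2 to 4). The 1 of endothelial-like cells became 0 by library size, 4 with DESeq2, 0 without the filter, 2 with the other names and 2 without neuron-like and acinar-like sums (0 to 2), an alternative chosen after seeing the data. The 3 of lymphocyte-like cells became 1 by library size and 6 without those sums (0 to 4), and no such cells were named from counts without background subtraction. The 6 of macrophage-like cells became 3 with background subtracted (4 to 7), and the 1 of erythrocyte-like cells 0 to 1.

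With background subtracted, the set's sum was 12585 CPM in mock and 12216.5 CPM at 0 dpa, 32240.5 CPM at 2 dpa, 38511 CPM in hepatocyte-like cells of 3 dpa and 11153 CPM in those of 7 dpa. Reversals were listed only for the 56 genes named by rule, so other members may have reversed as well. Those listed were cox7a2l at 3 dpa with background subtracted (-0.41) and cox8b at 7 dpa by library size (-0.30). The third was atp5if1a at 7 dpa against mock with default TMM factors (0.57) and DESeq2 (0.80). Shallow mock and 0 dpa sums limit what could be called there. The cause of these moves was not tested.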
